A study of Mus musculus with 4 samples.

Results

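The insulin-like growth factor axis was followed through 10 genes fixed by symbol, which are the ligands Igf1 and Igf2, the noncoding RNA H19, the receptors Igf1r, Igf2r and Insr, and the binding proteins Igfbp2, Igfbp3, Igfbp4 and Igfbp5. A gene was represented by the brightest probe set that carries its symbol alone, and 9 of the 10 genes had one, out of 19938 genes in all. H19 has no such probe set in the platform annotation used here and was not analysed. Signals come from Affymetrix arrays of the whole-transcript type, where the probes of a set are spread over the transcript, and are given on the log2 scale.

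The RNA came from whole brains of C57BL/6J fetuses, an inbred mouse strain, at embryonic day 16. In the ethanol group the pregnant females had received ethanol in saline at 2.5 g per kg by injection on gestational days 14 and 16, and in the control group saline in equal volume. Each array carried RNA pooled from 3 mice, with 2 arrays per group and 12 mice in all, and the sex of the fetuses is labelled as unknown. The comparison asks whether transcripts in the fetal brain differ after acute ethanol exposure. The litters behind each pool are not given, so p-values set a difference only against spread between these pools, with variance shared between genes.

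Insulin-like growth factors 1 and 2 are secreted growth signals that act mainly through the tyrosine kinase receptor Igf1r and, for Igf2, also through the insulin receptor Insr. Igf2r takes up Igf2 for breakdown in lysosomes, and the binding proteins hold the ligands outside the cell and set how much reaches a receptor. In most tissues, though not in all, Igf2 is expressed from the paternal copy and H19 and Igf2r from the maternal copy. In the fetal brain Igf2 is best known from meninges, choroid plexus and vessels.

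The 4 pools did not stand alike. The skeletal muscle markers, which are not brain genes, had a summed linear signal of 16151 in control 1 and 1954 in control 2, and of 5515 in ethanol 2 and 2038 in ethanol 1. All 12 of 12 muscle markers were highest in control 1, and 11 of the 12 were at least 2-fold higher there than in control 2. Xist, the RNA of the inactive X chromosome, had a log2 signal of 6.10 in control 1 and of 12.0 to 12.8 in the other pools. The 7 neuron markers had a summed linear signal between 43286 and 45851, as the brain label implies, and none of them was 2-fold higher in control 1 than in control 2. The median array value was 8.01 to 8.04. The number of arrays and the spread between pools limit the precision.

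All 9 measured genes had their highest signal in control 1, where control 1 was the highest array for 26.8% of all genes. The ligands and Igfbp4 differed most between pools of the same treatment, and Igf1r and Insr least. The mean of ethanol was below that of control for all 9 genes, by 0.04 to 0.33 on the log2 scale, against 45.8% of all genes with a lower mean in ethanol. None of the 9 differences passed the limma test over all genes at a Benjamini-Hochberg adjusted p under 0.05, and 0% of all genes did. In bulk tissue, fewer cells of a type and less RNA per cell cannot be told apart.

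**Figure D1:**
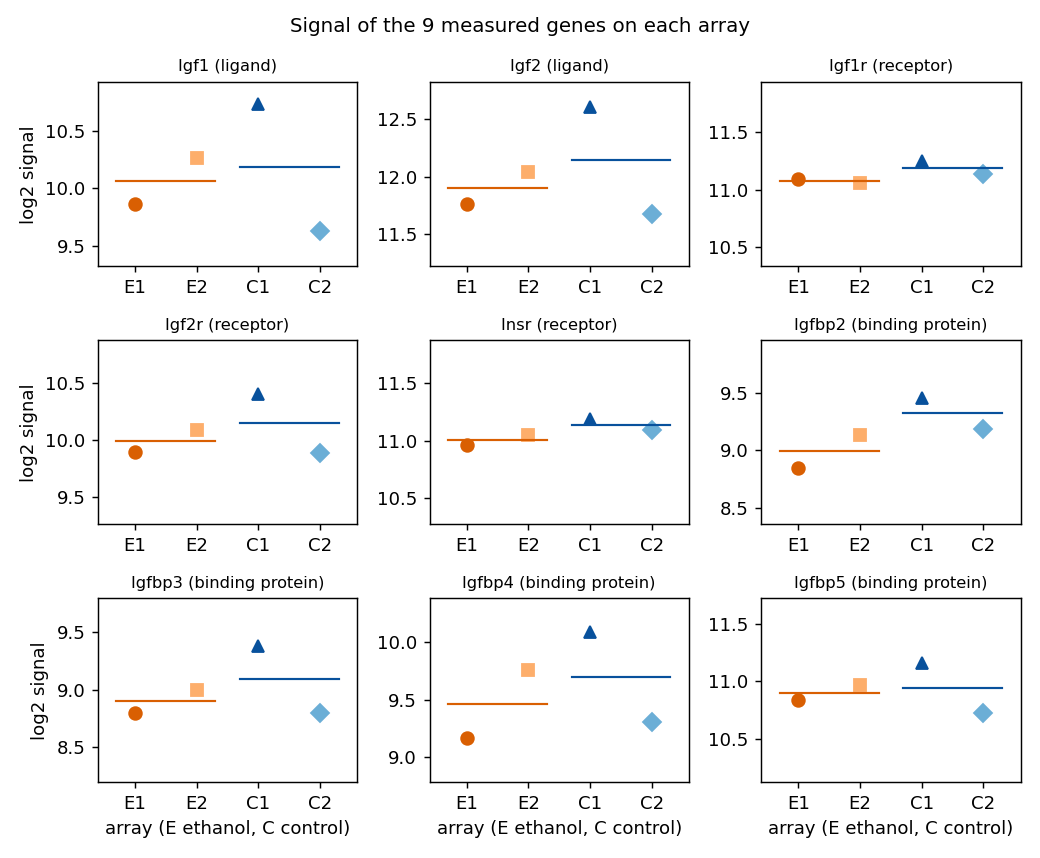
Log2 signal (y axis) of the 9 measured genes on each array (x axis, E1 and E2 ethanol, C1 and C2 control), with a horizontal line at the mean of each group's 2 arrays. Every panel spans the same height on the log2 scale, and control 1 is the highest point in all 9 panels.

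Igf2, the main fetal growth ligand of the family (probe set 10569344), had log2 signals of 11.76 and 12.04 in ethanol 1 and ethanol 2 and of 12.61 and 11.68 in control 1 and control 2. Both ethanol pools therefore lay between the control pools, and the groups overlapped. The group means were 11.90 ± 0.20 (SD, n = 2) for ethanol and 12.14 ± 0.66 (SD, n = 2) for control. The log2 difference, ethanol minus control, was -0.24 ± 0.30 (SE), with a 95% interval from -0.98 to 0.49, adjusted p = 0.980 by limma. Without control 1 it was 0.22, and without control 2 it was -0.71.

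Igf1, the ligand that also drives growth after birth (probe set 10365559), had log2 signals of 9.86 and 10.26 in the ethanol pools 1 and 2 and of 10.74 and 9.63 in the control pools 1 and 2. The control pools again enclosed both ethanol pools. Control 1 was 2.15-fold above control 2, the widest distance between pools of 1 treatment among the 9 genes. The log2 difference between treatments was -0.12 ± 0.36 (SE), 95% interval -1.004 to 0.76, adjusted p = 0.990 by limma. It turned to 0.08 without ethanol 1 and to 0.43 without control 1.

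The 2 ligands and Igfbp4 had the widest pool distances and Igfbp2 the largest difference between treatments, so the stretch before a transcription start is shown for these 4 genes. RefSeq windows of 250 bases before to 50 bases after a start were matched for 8 of the 10 genes, 12 windows in all. The 150 bases just before the start follow, 5′ to 3′, with a GC box (GGGCGG) or a TATA box (TATAAA) on either strand in capitals. For Igf2, which has 4 listed starts, the one nearest the 3′ end of the gene is given, and for Igfbp2 the first of its starts.
Igf1 (GRCm38.p6, chr10:87860961-87861110, + strand): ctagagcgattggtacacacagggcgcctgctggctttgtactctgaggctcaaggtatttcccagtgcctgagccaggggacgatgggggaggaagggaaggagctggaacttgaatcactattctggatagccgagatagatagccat
Igf2 (GRCm38.p6, chr7:142657497-142657646, - strand): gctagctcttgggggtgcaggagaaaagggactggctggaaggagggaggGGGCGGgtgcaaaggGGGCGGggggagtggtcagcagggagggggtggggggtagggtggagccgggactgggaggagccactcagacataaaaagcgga
Igfbp4 (GRCm38.p6, chr11:99041094-99041243, + strand): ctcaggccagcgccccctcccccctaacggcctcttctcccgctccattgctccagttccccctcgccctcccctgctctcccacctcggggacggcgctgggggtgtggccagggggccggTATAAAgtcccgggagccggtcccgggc
Igfbp2 (GRCm38.p6, chr1:72824330-72824479, + strand): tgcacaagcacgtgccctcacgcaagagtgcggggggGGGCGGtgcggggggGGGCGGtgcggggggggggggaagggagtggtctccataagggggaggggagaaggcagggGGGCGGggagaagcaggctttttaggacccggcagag
Neither motif was common to all 4 genes. The Igf1 window held neither, that of Igf2 held 2 GC boxes, that of Igfbp4 a single TATA box and that of Igfbp2 3 GC boxes. A GC box was found in 5 of the 12 windows and in 35.7% of all 32851 windows of 300 bases, and a TATA box in 1 of the 12 and in 13.6% of all. The motifs do not overlap each other in letters, and a match describes the sequence only.

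Igf1r, the signalling receptor of both ligands (probe set 10554094), had log2 signals of 11.09 and 11.06 in the ethanol pools and 11.25 and 11.14 in the control pools. Both ethanol pools were below both control pools, by small steps. Ethanol minus control came to -0.12 ± 0.07 (SE), 95% interval -0.30 to 0.07, adjusted p = 0.980 by limma. Control 1 was only 1.08-fold above control 2. With any array left out the difference ran from -0.17 to -0.06, and where groups do not overlap its sign cannot change.

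Insr, the insulin receptor (probe set 10576692), gave 10.96 and 11.05 in ethanol 1 and 2 and 11.19 and 11.09 in control 1 and 2. Its groups did not overlap either. Its log2 difference was -0.13 ± 0.08 (SE), 95% interval -0.32 to 0.06, adjusted p = 0.980 by limma. A further Insr probe set (10576696) had a difference of -0.05 ± 0.07 (SE), again with both ethanol pools lowest.

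Igf2r, the clearance receptor (probe set 10447799), followed the order of the ligands. The ethanol pools 1 and 2 stood at 9.892 and 10.08, and the control pools 1 and 2 at 10.40 and 9.891. Ethanol 1 and control 2 were thus level, and the groups overlapped. Its treatment difference was -0.16 ± 0.18 (SE), 95% interval -0.59 to 0.28, and came to 0.10 without control 1.

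Igfbp2, the main binding protein of cerebrospinal fluid (probe set 10347277), had the largest difference of the 9 genes. The log2 signals were 8.84 and 9.14 in the ethanol pools 1 and 2, and 9.46 and 9.19 in the control pools 1 and 2. Both ethanol pools lay below both control pools, but ethanol 2 lay only 0.05 below control 2. Ethanol minus control was -0.33 ± 0.13 (SE), a ratio of 0.795, with a 95% interval from -0.67 to 0.002. The unadjusted p was 0.0511 and the adjusted p = 0.980 by limma, so it did not pass. Without control 1 the difference was -0.20, without ethanol 1 it was -0.19, and without ethanol 2 or control 2 it was -0.48 or -0.47.

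Igfbp5, which binds the ligands and the extracellular matrix (probe set 10355500), lies beside Igfbp2 on chromosome 1 with no protein-coding gene between them in the RefSeq gene table of GRCm38.p6. Its log2 signals were 10.84 and 10.96 in the ethanol pools and 11.16 and 10.72 in the control pools, so the groups overlapped. The log2 difference was the smallest of the 9, at -0.04 ± 0.15 (SE). It was 0.02 without ethanol 1 and 0.18 without control 1, so the neighbours were not alike in sign under these settings, though a test of their difference was not made.

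Igfbp3, the main ligand carrier of the circulation (probe set 10384223), stood at 8.803 and 9.001 in ethanol 1 and 2 and at 9.38 and 8.800 in control 1 and 2. Ethanol 1 and control 2 were level, as for Igf2r. The log2 difference was -0.19 ± 0.19 (SE), and 0.10 without control 1.

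Igfbp4, a binding protein that the protease Pappa cleaves (probe set 10381096), had log2 signals of 9.17 and 9.76 in the ethanol pools 1 and 2 and of 10.09 and 9.30 in the control pools 1 and 2. Here the 2 pools of both treatments were far apart, by 1.505-fold in ethanol and 1.72-fold in control. Ethanol minus control was -0.24 ± 0.30 (SE), 95% interval -0.98 to 0.51. It was 0.06 without ethanol 1 and 0.16 without control 1.

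**Figure D2:**
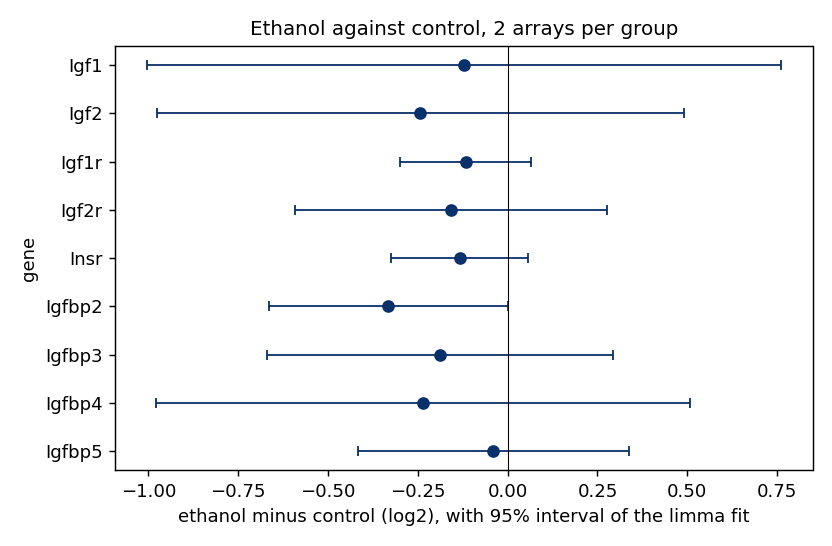
Difference in log2 signal, ethanol minus control (x axis), for each measured gene (y axis), with bars for the 95% interval of the limma fit and 2 arrays per group. All 9 points lie below 0 and all 9 intervals include 0, the closest being Igfbp2 with an upper end of 0.002.

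Over the 9 genes the median log2 difference was -0.16, beside 0.01 over all genes. The groups did not overlap for 3 of the 9 (Igf1r, Insr and Igfbp2), all 3 lower in ethanol. Over all genes 31.4% did not overlap in either direction and 14.0% did not with ethanol lower. Standard errors ran from 0.07 for Igf1r to 0.36 for Igf1, and 7 of the 9 were above the median of 0.079 over all genes. An unadjusted p under 0.05 was reached by 0 of the 9 genes and by 2.94% of all genes, and together with a fold of at least 1.2 by 0 of the 9 and 1.02% of all genes. Leaving out control 1 put 6 of the 9 differences above 0 (Igf1, Igf2, Igf2r, Igfbp3, Igfbp4 and Igfbp5) and the median at 0.10. Leaving out control 2 put the median at -0.47.

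**Figure D3:**
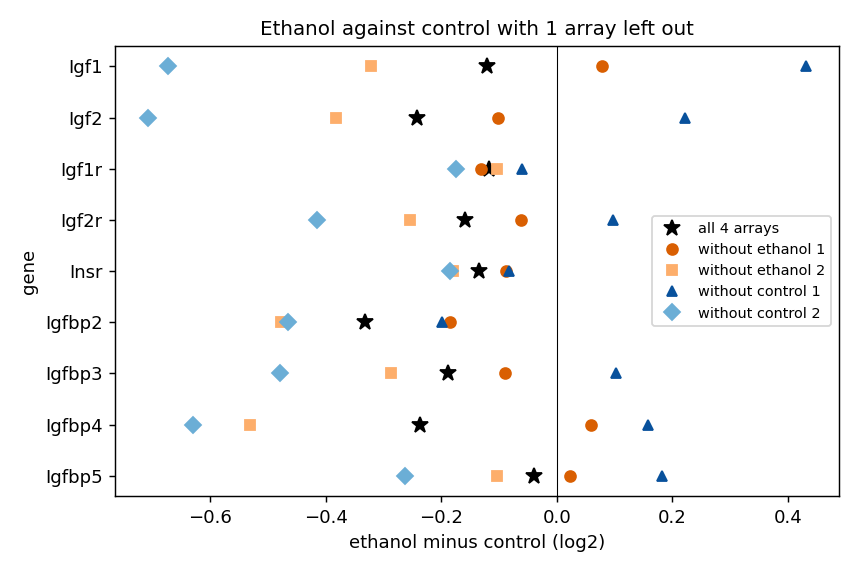
Difference in log2 signal, ethanol minus control (x axis), for each measured gene (y axis), with all 4 arrays (stars) and with each array left out in turn (other symbols). Without control 1 the values of 6 genes lie above 0, up to 0.43 for Igf1. Igf1r, Insr and Igfbp2 stay below 0 in every setting, as genes whose groups do not overlap must.

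The step between the control pools was larger than the difference between treatments for 6 of the 9 genes, all but Igf1r, Insr and Igfbp2. For this count the share over all genes was not computed, and a step between 2 single arrays varies more than a difference of 2-array means. Control 1 was above control 2 and ethanol 2 above ethanol 1 for 8 of the 9, all but Igf1r, against 25.3% of all genes. Control 1 was at least 1.2-fold above control 2 for 7 of the 9, against 5.39% of all genes. In ethanol, pool 2 was likewise at least 1.2-fold above pool 1 for 4 of these 7 (Igf1, Igf2, Igfbp2 and Igfbp4), and both steps together were met by 1.33% of all genes. The median of control 1 minus control 2 was 0.51 over the 9 genes and -0.01 over all genes, and that of ethanol 2 minus ethanol 1 was 0.20 and -0.03. An order of control 1, ethanol 2, ethanol 1, control 2 from high to low was shared by 5 of the 9, namely Igf1, Igf2, Igf2r, Igfbp3 and Igfbp5. How many of all genes had this order was not counted.

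Markers of several other tissues also differed between these pools, though not all in the same way. Among the meningeal and fibroblast markers, 10 of 10 were highest in control 1 and 7 of 10 were higher in ethanol 2 than in ethanol 1. Their summed linear signal was 15219 and 9360 in control 1 and 2 and 10737 and 8592 in ethanol 2 and 1. The small leucine-rich proteoglycan Dcn, for example, had a log2 signal of 12.05 in control 1 and 11.11 in control 2. In ethanol 2 and ethanol 1 it was 11.41 and 10.99. Ptgds, Aldh1a2 and Slc6a13 of the same list went the other way between the ethanol pools. For these, ethanol 2 minus ethanol 1 was -0.24, -0.13 and -0.36. For muscle the median step was 2.91 between the control pools and 0.75 between the ethanol pools, and Myh3, the embryonic myosin, stood at 10.30 and 6.84 in the control pools. The endothelial markers were highest in control 1 in 6 of 6 cases but differed between the ethanol pools by a median of only -0.01. Of the pericyte markers 5 of 6 were highest in control 1. The cartilage markers were higher in control 1 than in control 2 and in ethanol 2 than in ethanol 1 in 5 of 5 cases, with median steps of 0.40 and 0.53, but only 1 of 5 was highest in control 1. Of the 2 measured bone markers, Ibsp, a matrix protein of bone, had log2 signals of 7.05 and 11.21 in the ethanol pools 1 and 2 and 10.82 and 7.50 in the control pools 1 and 2, so it was highest in ethanol 2. The choroid plexus markers had summed signals of 11022 to 12801, the largest part from Ttr, with 4 of 6 highest in control 1. Their median steps were 0.08 between the control pools and 0.04 between the ethanol pools. Kl of this list was under the lower quartile on all arrays. None of the muscle or meningeal markers was under the lower quartile on all arrays. Of the muscle markers, however, Mylpf was under it in every pool but control 1, and Myog in both ethanol pools. The log2 signals of Mylpf in ethanol 1, ethanol 2 and control 2 were 5.70, 6.06 and 5.56. The part of these tissues in the values of the growth factor genes was not tested.

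**Figure D4:**
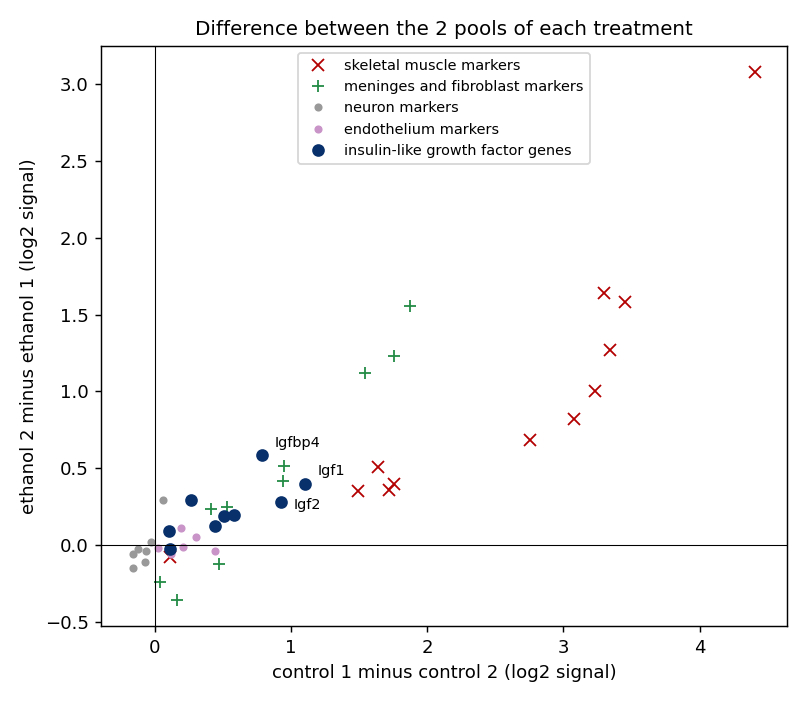
Log2 step between the 2 control pools (x axis) and between the 2 ethanol pools (y axis) for the 9 measured growth factor genes and for markers of muscle, meninges and fibroblasts, neurons and endothelium, 1 point per gene. Igf1, Igf2 and Igfbp4 lie to the upper right. The cartilage marker Col2a1, not drawn, had steps of 0.84 and 0.57. Of the meningeal and fibroblast markers, Dcn and Col3a1 lie near these 3 genes, while Col1a1, Col1a2 and Lum lie farther out. Ptgds, Aldh1a2 and Slc6a13 of that list lie below 0 on the y axis. Most muscle markers lie far to the right. Of the neuron markers 6 of 7 have a step below 0 between the control pools, and Tubb3 lies at 0.06 and 0.30.

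Genes whose profile over the 4 arrays came closest to that of Igf2 were found by the Euclidean distance between log2 values centred on each gene's mean. The nearest 5 genes outside the family were Itpripl2 (distance 0.021), Pdlim3 (0.091), Sh3pxd2a (0.099), Ctsc (0.105) and Arhgap10 (0.105). Of the family, Igf1 was nearest at 0.193, followed by Igfbp4 at 0.241 and Igfbp3 at 0.258, and Igf1r was farthest at 0.628. These distances rest on 4 arrays and describe these pools only.

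Within the RefSeq span of Igf2 lies the microRNA gene Mir483, which has a probe set of its own (10569356) and was looked at after its values were seen. Its mature forms, with the seed (bases 2 to 8) in capitals, are given to mark which transcript that probe set is annotated to.
mmu-miR-483-5p: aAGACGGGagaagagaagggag
mmu-miR-483-3p: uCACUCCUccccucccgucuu
This probe set did not follow the order of Igf2. The ethanol pools 1 and 2 gave 9.25 and 8.86 and the control pools 1 and 2 gave 9.14 and 8.95, with a log2 difference of 0.01 ± 0.16 (SE). Mir675 lies within the RefSeq span of H19, and the probe set annotated to it (10569341) also carries the symbol of a gene on another chromosome, so it was not taken as a measure of either or of H19. Its log2 signals were 10.47 and 11.42 in ethanol 1 and 2 and 12.36 and 10.07 in control 1 and 2, in the same order of arrays as Igf2.

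Beyond these genes, 51 of 56 further genes of the pathway, listed by role, had a probe set of their own. None of the 51 passed the limma test over all genes and 0 reached an unadjusted p under 0.05, with a smallest unadjusted p of 0.0527 for Adam12, a metalloprotease that can cleave binding proteins. Their median log2 difference was -0.03, beside 0.01 over all genes. Of the 51, 34 were below 0, against 45.8% of all genes, and 26 were highest in control 1, against 26.8%. The groups did not overlap for 19 of the 51, 14 of them lower in ethanol, next to the 31.4% and 14.0% over all genes.

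**Figure D5:**
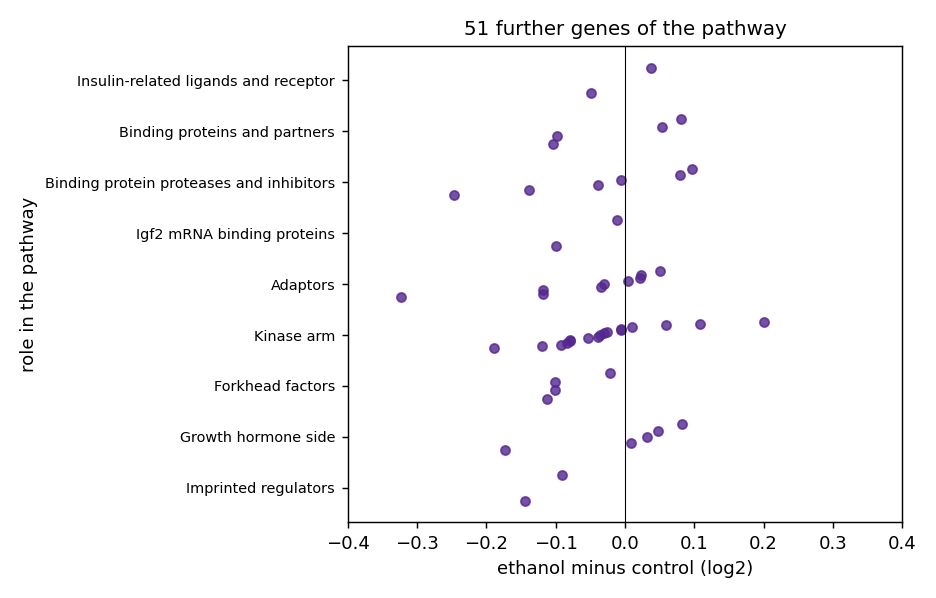
Difference in log2 signal, ethanol minus control (x axis), of the 51 further pathway genes, 1 point per gene, grouped by role (y axis). The points run from -0.32 to 0.20, on both sides of 0 in 6 of the 9 roles.

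Among the other binding proteins, Igfbp7, a low-affinity binder of vessel walls, had a log2 difference of -0.10 ± 0.08 (SE) and Igfbp6 of -0.10 ± 0.09. Igfbp1 (0.08 ± 0.07) and Igfals, the partner of Igfbp3 in serum (0.05 ± 0.08), were under the lower quartile on all 4 arrays. The insulin gene Ins2, next to Igf2, stood at 0.04 ± 0.07, and the insulin receptor-related Insrr at -0.05 ± 0.08.

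The proteases and their inhibitors gave small values. Pappa, which frees ligand from Igfbp4, stood at -0.01 ± 0.07 and Pappa2 at 0.08 ± 0.09. Their inhibitors Stc1 and Stc2 stood at -0.14 ± 0.07 and 0.10 ± 0.07, on opposite sides of 0. Igf2bp1 and Igf2bp3, which bind Igf2 mRNA, stood at -0.10 ± 0.12 and -0.01 ± 0.13.

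Downstream of the receptors, the adaptors Irs1, Irs2 and Irs4 had log2 differences of 0.02 ± 0.09, 0.05 ± 0.09 and -0.04 ± 0.09. Grb10, an imprinted inhibitor of receptor signalling, stood at -0.12 ± 0.24. Its log2 signal was 11.18 and 10.48 in control 1 and 2 and 10.85 and 10.57 in ethanol 2 and 1, the order seen for Igf2. Irs1, Igf2bp1, Akt2 and Eif4ebp1 shared this order. Plagl1, an imprinted zinc finger factor that regulates Igf2, was also highest in control 1 (11.90) and lowest in control 2 (11.28), with a log2 difference of -0.09 ± 0.20.

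In the kinase arm 13 of 17 measured genes had values below 0, against 45.8% of all genes, with a median of -0.04. The groups did not overlap, in either direction, for 11 of the 17, against 31.4% of all genes. This was the highest share of the 9 roles, next to 0 of 9 adaptors and 3 of 6 proteases and inhibitors. The 11 include genes higher in ethanol, with Eif4ebp2 among them. None of the 17 passed the test. Akt1 stood at -0.19 ± 0.10 with both ethanol pools lowest, and Akt2 at -0.08 ± 0.10. Mtor, the growth kinase at the end of this arm, stood at -0.09 ± 0.07, while the translation repressor Eif4ebp2 had the highest value of the list, 0.20 ± 0.11, and was named after its value was seen. All 4 forkhead factors had values below 0. Foxo1 and Foxo3, which this kinase arm keeps out of the nucleus, stood at -0.10 ± 0.07 and -0.10 ± 0.08. None of these differences passed the test, with adjusted p of 0.980 or above by limma.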

How the data were processed

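The deposited values, per the labels from Affymetrix whole-transcript arrays, are on a log2 scale; this base was inferred from their range. The submitters' processing notes name Partek 6.6, while for the background, scaling and probe summary steps nothing was given in the sources used here. Of 35556 probe sets, 21789 carry 1 symbol, 1621 several and 12146 none; 21698 of the 21789 were updated by Entrez identifier through a RefSeq table of GRCm38.p6, used for names and neighbours only since the array's build is not named. The brightest probe set represented each of 19938 genes. No other sample's columns (0) were present.

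Limma 3.58.1 in R 4.3.3 (lmFit and eBayes, 2 residual and 5.65 total degrees of freedom) compared ethanol with control, two-sided, with Benjamini-Hochberg adjustment over all genes, and was tested on simulated data. The members and lists were chosen with earlier results of these data known. Named genes were the members, a set of further genes fixed by name, any further gene past the threshold and the 5 nearest to Igf2. Summed signals are sums of 2 to the power of the log2 values. The alternatives tried were other scalings, variance models, probe set rules, a replicate block and leaving out each array.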

Additional observations from a re-analysis of the deposited data

How the results depend on the processing

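No member and no further pathway gene was called under any alternative run. Igf1r, Insr and Igfbp2 kept their sign with any array left out, as genes whose groups do not overlap must. For Igf1, Igf2 and Igf2r the log2 difference then ran over -0.67 to 0.43, -0.71 to 0.22 and -0.41 to 0.10. Leaving out an array moved it over -0.48 to 0.10 (Igfbp3), -0.63 to 0.16 (Igfbp4) and -0.26 to 0.18 (Igfbp5). It moved the members' median over -0.47 to 0.10, that of the further pathway genes over -0.0681 to -0.0075, the members with groups apart from 3 to 9, all genes with groups apart from 11642 to 14832, the genes called from 0 to 4 and those at a fold of 1.2 and an unadjusted p under 0.05 from 142 to 1265. With 3 arrays a lone array is assumed to vary like the other group, and groups are more easily apart. With all arrays 203 genes met that last rule and 6252 had groups apart. These became 134 and 3466 in the brighter genes, where fewer are tested, and 993 and 11200 over all 35556 probe sets. The ordinary test gave 37 genes by the first rule. For the last 2 settings the cause was not tested.

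No label ties arrays of 1 number together, and their deviations from the group means correlated at -0.484 across genes. A replicate block left 0 genes and 0 members called and 196 genes that met the rule at a fold of 1.2; a crossed pairing, added after the data were seen, gave 0, 0 and 373. The values per gene stay the same under a block. Repeated quantile normalization, median centring, the mean of probe sets and trended or robust variances left the sign of all 9 members as it was. With 2 pools per group, differences of the size seen here are hard to tell from pool differences.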

Other observations

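Among the further pathway genes, 3 of 51 were at least 1.2-fold higher in control 1 than in control 2 and in ethanol 2 than in ethanol 1, as were 1.33% of all genes. They are Grb10, Ghr and Htra1, named after their values were seen. The growth hormone receptor Ghr stood at log2 signals of 8.38 and 8.89 in ethanol 1 and 2 and 9.06 and 8.57 in control 1 and 2. Htra1, a secreted protease that cleaves binding proteins, stood at 7.08 and 7.49 in ethanol 1 and 2 and 7.53 and 7.11 in control 1 and 2. For both genes the step within each treatment was larger than the log2 difference between treatments, which was -0.17 ± 0.22 (SE) for Ghr and -0.04 ± 0.19 for Htra1. Steps of at least 1.2-fold in both treatments were the rule that picked these genes, so this comparison is no separate result. Shc1, an adaptor of growth factor receptors, had the lowest value of the list at -0.32 ± 0.19, with signals of 7.58 and 7.76 in ethanol 1 and 2 and 8.28 and 7.70 in control 1 and 2, so its groups overlapped.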
